A study of Homo sapiens with 4 samples.

Results

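The genes examined here are targets of p53 tied to growth arrest, stress defence and the feedback control of p53 itself. They were chosen by name (MDM2, MDM4, CDKN1A, TP53I3, SESN1, ZMAT3, GDF15, RRM2B and BTG2), and every probe set whose platform annotation carried exactly 1 of these symbols was taken. This gave 38 probe sets for 8 of the 9 genes, out of 18132 genes with a probe set of 1 symbol. BTG2 carried no such probe set in the annotation used and was not analysed here. The samples were 4 cultures of U87MG, an established human glioblastoma line that is generally described as carrying wild-type p53. All were kept at 0.2% oxygen. The control group (n = 2 arrays) received the PCMV control vector, and the other group (n = 2 arrays) received a NeuroD2 expression vector. NeuroD2 is a basic helix-loop-helix transcription factor of neuronal differentiation. RNA was taken 48 hours after transfection, so the groups share the line, the low oxygen and the transfection and differ in the vector. A single line, transiently transfected, was used, and the labels do not give the share of cells that took up a vector.

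The p53 protein is a transcription factor that is normally held at a low level by the ubiquitin ligase MDM2 and its partner MDM4. When DNA is damaged or cells are stressed, p53 escapes this control and induces genes that stop the cell cycle, such as CDKN1A, that repair or replace DNA building blocks, and that limit oxidative damage. It also induces MDM2, which closes a feedback loop, and in glioma cells that keep wild-type p53 this loop is a known route by which the pathway is held down. Several of these genes also answer to signals other than p53: GDF15, for instance, is induced by amino acid and endoplasmic reticulum stress.

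With the NeuroD2 vector TP53I3 and SESN1 fell, ZMAT3 rose, and CDKN1A, GDF15, MDM2, MDM4 and RRM2B did not pass the test. Of the 8 genes, 3 had an adjusted p below 0.05 by limma (1 higher and 2 lower), while over all genes 4.77% did, 1.81% higher and 2.96% lower. Groups did not overlap in 6 of the 8 genes, against 50.8% of all genes, and 4 had an unadjusted p below 0.05, against 21.8%. In these bulk samples, fewer cells that express a gene and less of its RNA per cell cannot be told apart. The absolute difference had a median of 0.27 log2 units over the 8 genes and 0.11 over all genes. Counted by probe set, 5 of 38 passed, 2 higher and 3 lower, against 3.03% of all probe sets with 1 symbol (1.32% higher and 1.7% lower). Groups did not overlap in 16 of the 38, against 49.4%, and 8 had an unadjusted p below 0.05, against 19.9%.

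**Figure D1:**
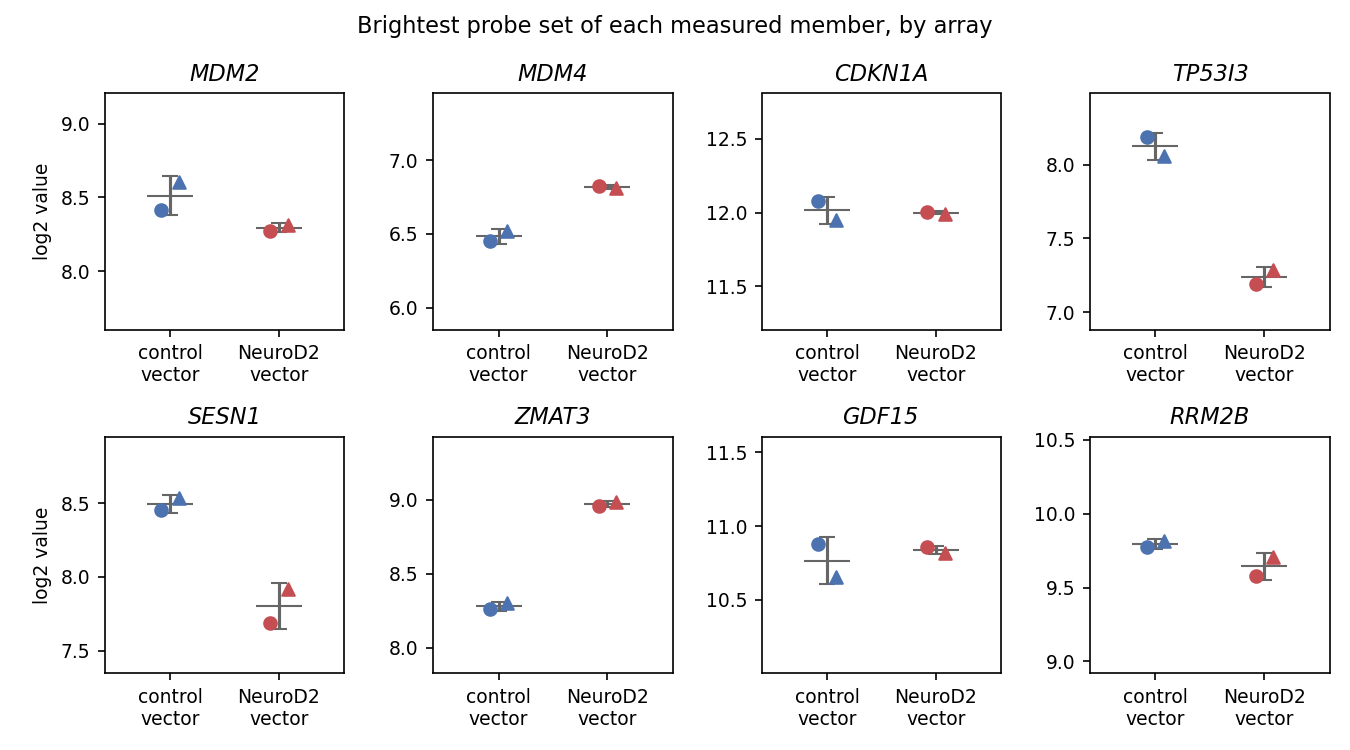
Each panel plots the log2 value of a gene's brightest probe set on the 2 control vector arrays (blue) and the 2 NeuroD2 vector arrays (red); circles are replicate 1, triangles replicate 2, and grey bars give mean and SD. Every panel spans the same number of log2 units; TP53I3 and SESN1 sit lower with the NeuroD2 vector, ZMAT3 sits higher, and the CDKN1A and GDF15 groups overlap.

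TP53I3 encodes an NADPH-dependent quinone oxidoreductase linked to oxidative stress in p53-dependent cell death. Its only probe set read 8.19 and 8.06 on the control arrays and 7.19 and 7.29 on the NeuroD2 arrays (log2). Both NeuroD2 arrays lay well below both control arrays. The level fell by 0.88 log2 units, from 8.12 ± 0.09 to 7.24 ± 0.07 (SD, n = 2 each), which is 1.84-fold lower (standard error 0.09, 95% interval -1.09 to -0.67, adjusted p = 0.0098 by limma over all genes). TP53I3 thus had the largest absolute difference of the 8 genes and stood at rank 118 of 18132 genes by absolute difference. As TP53I3 has 1 probe set, no other probe set of this gene could be set beside it.

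SESN1 encodes sestrin 1, a stress protein that restrains the growth kinase complex mTORC1 and supports antioxidant defence. Its brightest probe set read 8.45 and 8.53 on the control arrays and 7.69 and 7.91 on the NeuroD2 arrays. The level fell by 0.69, from 8.49 ± 0.06 to 7.80 ± 0.16 (log2, SD, n = 2 each), or 1.61-fold (95% interval -0.94 to -0.44, adjusted p = 0.0251 by limma). The groups did not overlap, and the NeuroD2 arrays lay further apart than the control arrays. The second probe set read 8.47 and 8.52 against 7.60 and 7.76, a difference of -0.82 (adjusted p = 0.0178 by limma over all probe sets). Both probe sets of SESN1 therefore passed in the same direction.

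ZMAT3 encodes a zinc finger protein that binds RNA and acts downstream of p53 in growth suppression. Its brightest probe set read 8.26 and 8.30 on the control arrays and 8.96 and 8.99 on the NeuroD2 arrays. The level rose by 0.69, from 8.28 ± 0.03 to 8.97 ± 0.02 (log2, SD, n = 2 each), or 1.62-fold (standard error 0.07, 95% interval 0.51 to 0.87, adjusted p = 0.0113 by limma). The replicates of each group lay close together, and the groups were far apart by comparison. This probe set is of the x_at kind, which can hold probes that match other transcripts. The second probe set, of the a_at kind that matches transcripts of 1 gene, read 6.55 and 6.78 against 7.52 and 7.40, a difference of 0.79 (adjusted p = 0.0279 by limma over all probe sets). ZMAT3 was the only one of the 8 genes that rose past the threshold.

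CDKN1A encodes p21, the inhibitor of cyclin-dependent kinases through which p53 arrests the cell cycle. Its brightest probe set read 12.08 and 11.95 on the control arrays and 12.01 and 11.99 on the NeuroD2 arrays. The NeuroD2 values lay between the control values. Between the groups it differed by -0.02 (95% interval -0.21 to 0.18, adjusted p = 0.951 by limma), so a rise or fall of the size seen in TP53I3, SESN1 or ZMAT3 lies outside the interval. The second probe set read 10.66 and 10.73 against 10.59 and 10.68, a difference of -0.05 (adjusted p = 0.785 by limma over all probe sets).

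GDF15 encodes a secreted stress cytokine of the TGF-beta superfamily. Its brightest probe set read 10.88 and 10.65 on the control arrays and 10.86 and 10.82 on the NeuroD2 arrays, and the groups overlapped. The difference was 0.07 (95% interval -0.17 to 0.32, adjusted p = 0.735 by limma). All 5 probe sets differed upward, by 0.07 to 0.24, yet none was free of overlap and 0 passed by limma (0 at an unadjusted p below 0.05). On each of these probe sets control replicate 2 was the lowest array, and without it the difference on the brightest probe set was -0.04.

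MDM2 and MDM4 are related proteins that bind p53: MDM2 marks it for degradation, and MDM4 mainly masks its activation domain. The brightest MDM2 probe set read 8.42 and 8.61 on the control arrays and 8.28 and 8.32 on the NeuroD2 arrays. It was lower on both NeuroD2 arrays, by -0.22 (95% interval -0.44 to 0.01, adjusted p = 0.243 by limma), and did not pass. The differences of the other 10 MDM2 probe sets ran from -0.07 to 0.37, so that 7 of all 11 were above 0 and 4 below. None of the 11 passed by limma (1 at an unadjusted p below 0.05, at 0.31). With the mean of the MDM2 probe sets the difference was 0.094 (adjusted p = 0.667), so the direction for this gene depends on the probe sets read.

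The brightest MDM4 probe set read 6.45 and 6.52 on the control arrays and 6.83 and 6.81 on the NeuroD2 arrays, and the groups did not overlap. The difference was 0.33 (95% interval 0.15 to 0.51), with an adjusted p of 0.0659 by limma, just short of the threshold. A second probe set of the a_at kind read 5.57 and 5.54 against 5.87 and 5.85, a difference of 0.30 (adjusted p = 0.102 by limma over all probe sets). In all, 5 of the 6 MDM4 probe sets differed upward, the range being -0.02 to 0.33, and 0 passed (2 at an unadjusted p below 0.05). When genes dimmer than the median gene were removed, where fewer genes are tested, MDM4 passed (adjusted p = 0.0137). With the mean of the MDM4 probe sets the difference was 0.196, and it did not pass (adjusted p = 0.237 by limma). With the replicate number as a block it did not pass either (adjusted p = 0.108 by limma).

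RRM2B encodes the p53-induced subunit of ribonucleotide reductase, which supplies deoxynucleotides for DNA repair outside of S phase. Its brightest probe set read 9.77 and 9.82 on the control arrays and 9.58 and 9.71 on the NeuroD2 arrays. Both NeuroD2 values were lower, by -0.15 on average, with a 95% interval of -0.35 to 0.05 and an adjusted p of 0.361 by limma. Over its 9 probe sets the differences ran from -0.15 to 0.18, with 7 below 0, and 0 passed by limma (0 at an unadjusted p below 0.05).

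**Figure D2:**
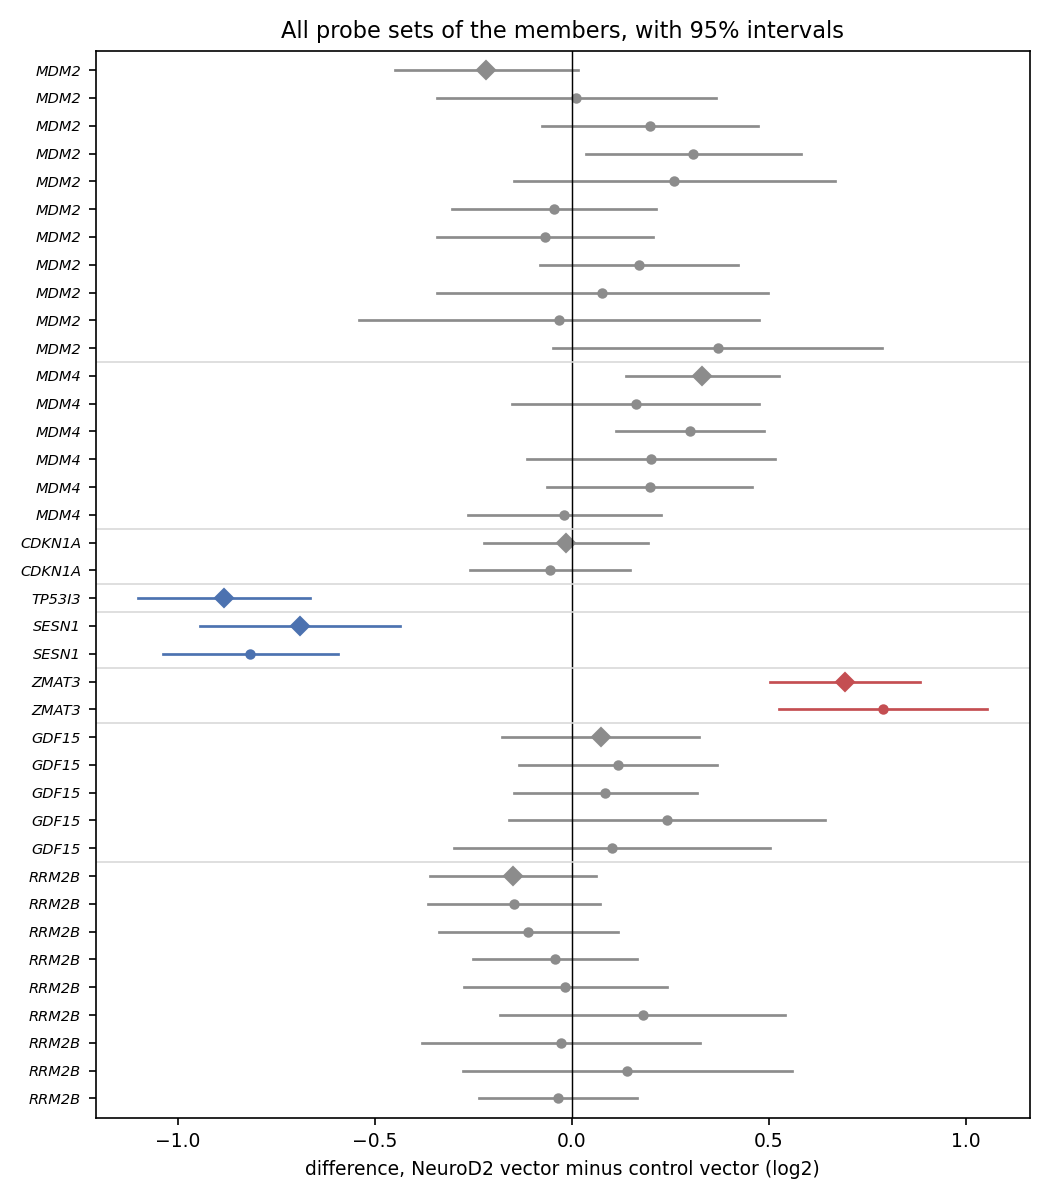
Each row is a probe set of the gene named at left, ordered by mean level within the gene; the symbol gives the difference in log2 units (NeuroD2 vector minus control vector, diamond for the brightest probe set) and the line its 95% interval from limma over all probe sets. Blue marks lower and red higher at an adjusted p below 0.05: the probe sets of TP53I3, SESN1 and ZMAT3 are coloured, and the 11 of MDM2 lie on both sides of 0.

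The calls rested on all 4 arrays. When any 1 array was left out, 1 group kept 1 array, and the calls among the 8 genes did not hold. Most calls over all genes were lost in these fits too, so the loss is not particular to the 8. The sizes moved little: the difference ran from -0.95 to -0.82 for TP53I3, from -0.80 to -0.58 for SESN1 and from 0.67 to 0.71 for ZMAT3. The differences of CDKN1A and GDF15 changed sign with 1 control array left out, and that of MDM2 was -0.31 when control replicate 1 was dropped and -0.12 when control replicate 2 was. Where a group kept 1 array, that array was assumed to vary like the other group. The smallest two-sided p that exact permutation of these 4 arrays allows is 0.333, so that test was not used. The labels call the samples biological replicates but do not say how cultures were separated. The p-values therefore set a difference against the spread between these samples, which limma moderates with the spread of all genes.

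**Figure D3:**
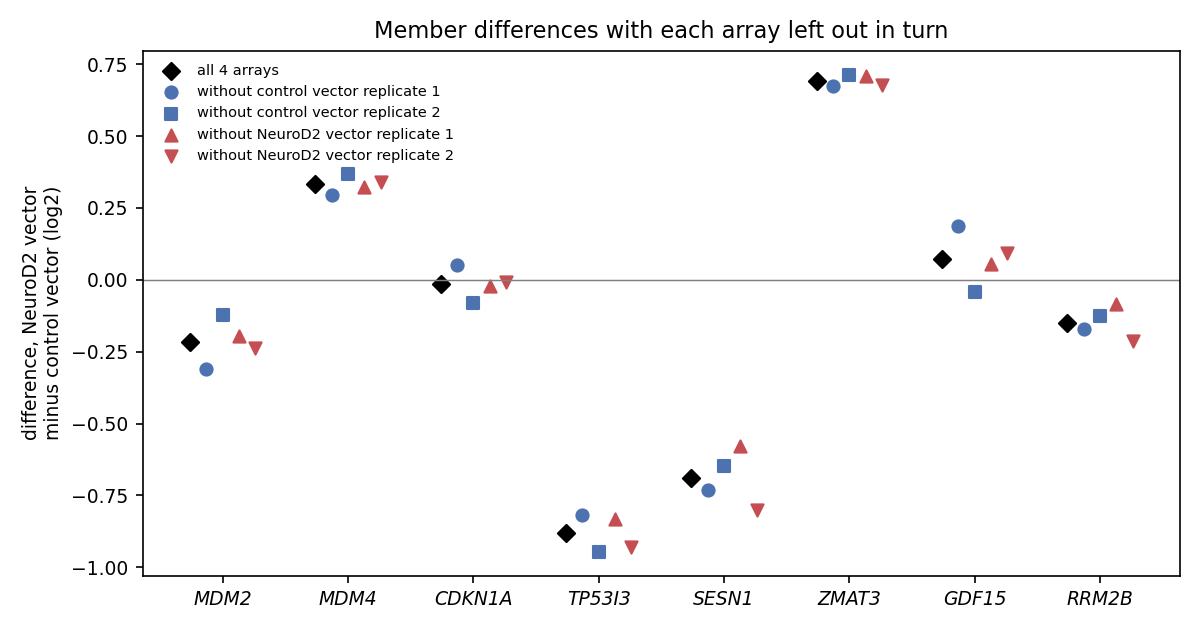
For each gene the vertical axis gives the difference in log2 units (NeuroD2 vector minus control vector) on its brightest probe set, with all 4 arrays (black) and with a control (blue) or NeuroD2 (red) array left out. TP53I3, SESN1 and ZMAT3 keep their side of 0 in all 5 settings, while CDKN1A and GDF15 cross it.

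Sequence upstream of the genes was examined because p53 and NeuroD2 recognise known motifs. RefSeq promoter windows (GRCh38.p14, 250 bases before to 50 after a transcript start) were available for 8 of the 9 genes, 14 windows in all. These genes are not the 8 measured ones: they include BTG2, which was not measured, and leave out RRM2B. Some windows of 1 gene overlap, as in MDM2, so windows are not separate counts. The p53 half-site consensus, a palindrome of 10 bases that reads the same on both strands, matched exactly in 1 window, of SESN1, and in 6.63% of 35116 windows of all genes. With at most 1 mismatch outside its central C and G it matched in 8 of the 14 windows. These belong to 4 of the 8 genes with a window, and 45.1% of all windows held such a half-site. A pair of such half-sites at most 13 bases apart, searched afterwards, was found in 2 overlapping windows of MDM2 and in 1.84% of all. This pair lies before the start inside the MDM2 gene that is known to respond to p53. The E-box CAGNTG, the kind of site bound by NeuroD factors, occurred on either strand in 6 of the 14 windows, those of MDM2, CDKN1A, ZMAT3 and GDF15, and in 49.9% of all windows. It overlapped no p53 pair or exact half-site in these windows. The 250 bases before the start are printed for the genes that fell or rose and for MDM2, 5′ to 3′ on the gene's strand. Capitals mark an exact p53 half-site, a pair of half-sites, or an E-box. A half-site with 1 mismatch outside a pair stays in lower case.
MDM2, chr12:68808774-68809023, plus strand: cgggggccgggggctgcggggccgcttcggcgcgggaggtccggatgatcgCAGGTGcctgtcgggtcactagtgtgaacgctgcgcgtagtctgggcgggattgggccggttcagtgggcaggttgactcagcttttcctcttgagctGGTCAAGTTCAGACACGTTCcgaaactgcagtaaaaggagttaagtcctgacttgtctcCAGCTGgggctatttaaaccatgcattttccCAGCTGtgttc
SESN1, chr6:109008989-109009238, minus strand: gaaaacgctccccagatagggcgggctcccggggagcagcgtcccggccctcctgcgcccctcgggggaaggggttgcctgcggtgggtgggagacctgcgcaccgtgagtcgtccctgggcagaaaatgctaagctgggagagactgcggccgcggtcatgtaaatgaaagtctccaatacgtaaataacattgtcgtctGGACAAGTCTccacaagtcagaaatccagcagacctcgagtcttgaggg
ZMAT3, chr3:179069343-179069592, minus strand: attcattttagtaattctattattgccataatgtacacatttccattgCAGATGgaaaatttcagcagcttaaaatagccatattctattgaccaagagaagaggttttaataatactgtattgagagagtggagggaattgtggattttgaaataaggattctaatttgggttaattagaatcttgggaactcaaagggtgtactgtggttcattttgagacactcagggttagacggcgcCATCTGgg
TP53I3, chr2:24084835-24085084, minus strand: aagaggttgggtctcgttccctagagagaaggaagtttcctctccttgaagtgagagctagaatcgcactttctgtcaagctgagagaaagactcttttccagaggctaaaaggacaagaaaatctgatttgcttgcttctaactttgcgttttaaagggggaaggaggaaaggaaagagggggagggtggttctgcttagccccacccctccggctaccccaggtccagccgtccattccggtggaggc

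In the MDM2 window the p53 pair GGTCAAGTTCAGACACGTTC spans bases -101 to -82 before the start, with 2 mismatches to the consensus in all, and the window holds 3 E-boxes, before and after it. The SESN1 window printed, 1 of 3 for this gene, holds the exact half-site GGACAAGTCT at bases -49 to -40. The ZMAT3 window printed, 1 of 2 for this gene, holds the E-boxes CAGATG and CATCTG, which is the same site read on the other strand, and no p53 half-site with up to 1 mismatch. The other ZMAT3 window, at chr3:179071760-179072059, holds 2 E-boxes and 1 p53 half-site with 1 mismatch. The TP53I3 window holds none of these motifs. A match describes letters only, and binding was not measured. Sites outside the windows or of another form were not searched, so an absence covers these windows and motifs only.

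Genes of the same pathway were taken from a list of other p53 targets, of which 39 of 40 were measured. Of these, 5 fell, 0 rose and 34 did not pass by limma, so that 12.8% passed against 4.77% of all genes. At an unadjusted p below 0.05 by limma there were 18, against 21.8% of all genes. The median difference was -0.10 in the list and 0 over all genes. CMBL, a hydrolase gene, fell by 0.86 from 7.28 to 6.42 (adjusted p = 0.0150 by limma). EDA2R, a receptor gene of the TNF receptor superfamily, fell by 0.66 (adjusted p = 0.0395 by limma). BBC3, which encodes the pro-death BH3 protein PUMA, fell by 0.64 from 8.48 to 7.84 (adjusted p = 0.0145). CCNG1, which encodes the p53-induced cyclin G1, fell by 0.62 (adjusted p = 0.0159). The fifth, chosen after its value was seen, was DDB2, a DNA damage recognition gene (-0.57, adjusted p = 0.0454). Groups did not overlap in 27 of the 39 list genes, against 50.8% of all genes. The 5 called genes are among them, but a call by this test already favours genes without overlap. The death receptor gene TNFRSF10B had the highest value of the list, 0.33, and did not pass (adjusted p = 0.0635). The calls of this list did not hold when any 1 array was left out, and most calls over all genes were then lost too. With an intensity trend 14 list genes passed, when 2056 of all genes did. With dim genes removed 15 list genes passed, when 2081 of all the genes kept did.

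Regulators of p53 were next. Of 26 measured of 28, 0 passed by limma, against 4.77% of all genes, with a median of 0.002. An unadjusted p below 0.05 was found for 8, against 21.8% of all genes. With quantile normalization or with median centring 1 passed. With an intensity trend 5 passed, when 2056 of all genes did, and with dim genes removed 6 passed, when 2081 of all the genes kept did. The largest absolute differences were those of HIPK2, a kinase that phosphorylates p53 (0.40, adjusted p = 0.0513), and TP53BP2, a p53-binding protein (0.34, adjusted p = 0.0652). Of 17 paralogs and partners of the 9 genes, such as CDKN1B, SESN2, SESN3, RRM1 and BTG1, 0 passed (2 at an unadjusted p below 0.05), with a median of 0.02, and 2 passed with an intensity trend or with dim genes removed. The antiproliferative genes BTG1 (0.26, adjusted p = 0.116) and BTG3 (0.22, adjusted p = 0.157) had the largest values. SESN2 differed by 0.02 (adjusted p = 0.916), beside the -0.69 of its relative SESN1; the difference between the relatives was not tested.

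CDKN1A acts on the cell cycle in part through the DREAM complex, which represses cell cycle genes. Of 31 measured of 32 such genes, 7 fell, 0 rose and 24 did not pass by limma (24 of the 31 at an unadjusted p below 0.05). That is 22.6% past the adjusted threshold, against 4.77% of all genes (2.96% lower), and 21.8% of all genes had an unadjusted p below 0.05. The median difference was -0.31, and 29 of the 31 were below 0. Whether CDKN1A had a part in this was not tested. The cyclin genes CCNA2 (-0.57, adjusted p = 0.0266) and CCNB2 (-0.45, adjusted p = 0.0427), the mitotic kinase gene CDK1 (-0.44, adjusted p = 0.0494) and the chromosomal passenger gene CDCA8 (-0.40, adjusted p = 0.0409) fell, while CDKN1A itself differed by -0.02. Of 20 ATF4 stress targets, 5 rose, 1 fell and 14 did not pass (15 at an unadjusted p below 0.05), with a median of -0.02. The share that passed was 30.0%, against the same 4.77% of all genes (1.81% higher and 2.96% lower). PPP1R15A, a phosphatase regulator of the stress response, rose by 0.94 (adjusted p = 0.0141), the transcription factor genes ATF3 and CEBPB rose by 0.56 (adjusted p = 0.0216) and 0.53 (adjusted p = 0.0333), and ASNS, the asparagine synthetase gene, fell by 0.45 (adjusted p = 0.0334). GDF15, which is also known as a target of this pathway, differed by 0.07. With any 1 array left out the calls of both lists did not hold, and most calls over all genes were then lost too.

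**Figure D4:**
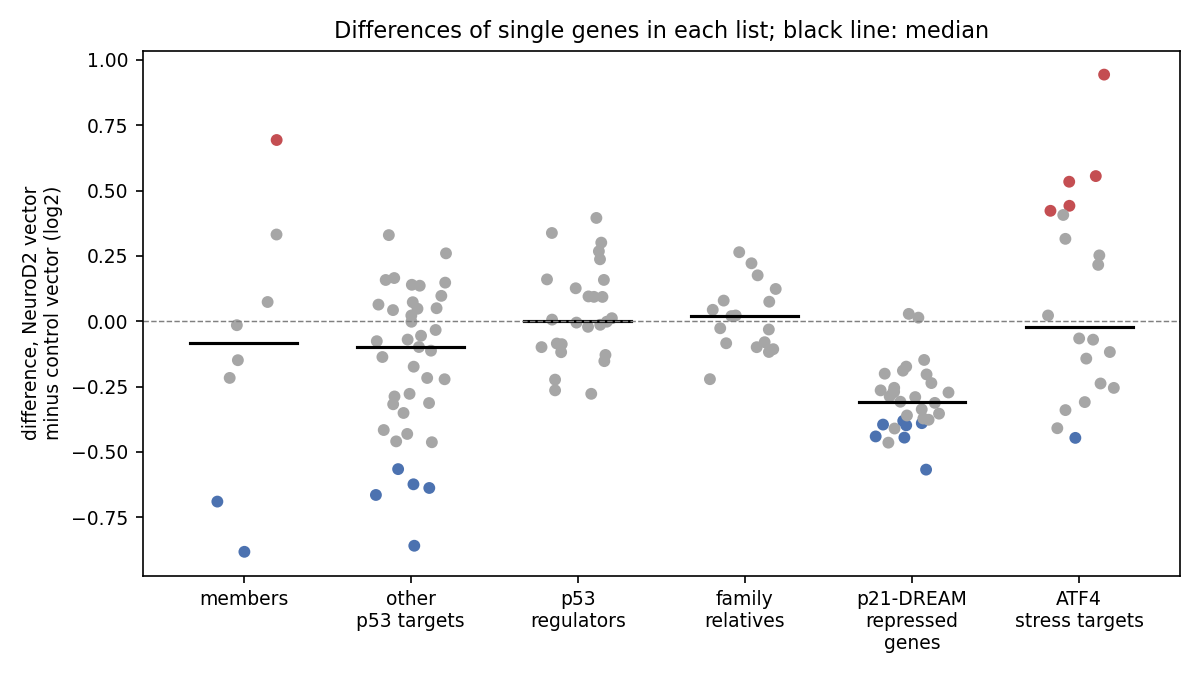
Each point is a gene, placed by its difference in log2 units (NeuroD2 vector minus control vector) on its brightest probe set; red marks higher and blue lower at an adjusted p below 0.05 by limma, grey did not pass, and horizontal position within a list has no meaning. The 5 coloured genes among other p53 targets lie below 0, as do the 7 among DREAM-repressed genes, while the members hold coloured points on both sides.

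The genes whose profiles over the 4 arrays were most like those of the 3 called members were named by Euclidean distance between gene-centred log2 values. For SESN1 they were SIAE (distance 0.04) and PLEKHA2 (0.05), for TP53I3 KDELR3 (0.07) and TMEM100 (0.08), and for ZMAT3 FAM167A (0.04) and GFOD1 (0.05). Within a distance of 0.1 lay 7 genes for SESN1, 9 for TP53I3 and 17 for ZMAT3, so over 4 arrays several genes shared each step.

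Spiked-in control RNAs differed between arrays. The 18 hybridisation spike probe sets were brighter with the NeuroD2 vector by 0.39 on average (0.22 without control replicate 1), so they moved with the groups. The 24 poly-A spike probe sets averaged 6.95 on control replicate 1 and 7.96 to 8.03 on the other arrays, so that 1 array stood apart there and not the group. Their part in the differences above was not tested. Of 9 glioma line markers measured, 2 fell, 0 rose and 7 did not pass (4 of the 9 at an unadjusted p below 0.05). Those that fell were the fibronectin gene FN1 (-0.63, adjusted p = 0.0318 by limma) and CHI3L1 (-0.51, adjusted p = 0.0383). Differences were above 0 for 5 of the 9 and below 0 for 4. The highest were those of OLIG2 (0.39, adjusted p = 0.0829 by limma) and GFAP (0.24, adjusted p = 0.133). Among the 7 that did not pass, VIM (14.1 in both groups) and CD44 (12.8 and 12.9) read near the top of the table, whose highest value was 14.3. SOX2 (4.47 and 4.60) and S100B (4.74 and 4.91) read low. Of 6 epithelial and 6 immune cell markers measured, 0 passed by limma (2 and 3 at an unadjusted p below 0.05). Of 8 neuron markers 1 fell, SNAP25 (-0.59, adjusted p = 0.0312 by limma), 0 rose and 7 did not pass. An unadjusted p below 0.05 was found for 3 of the 8. Differences were above 0 for 3 and below 0 for 5, and STMN2 had the highest (0.21, adjusted p = 0.173 by limma). Over all genes 4.77% passed, and 21.8% had an unadjusted p below 0.05. Mean levels of the neuron list were 6.52 and 6.47 on the control arrays and 6.39 and 6.33 on the NeuroD2 arrays. No detection calls were used, so no gene was called absent.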

How the data were processed

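RNA from 4 U87MG samples was measured on 1-colour human PrimeView arrays. The values are the authors' deposited table of 49395 probe sets, read as log2 values because they run from 2.65 to 14.3. The array medians are close to equal, as after normalization between arrays. The sources used here give neither software nor normalization method, and scan dates were not used. Arrays carry no sequencing depth, and their number limits precision.

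Gene names came from the platform annotation: 44988 probe sets carried 1 symbol, and 44961 of these matched the RefSeq gene table (0 symbols changed). The brightest probe set on average stood for a gene. The comparison used limma 3.58.1 in R 4.3.3 (lmFit, eBayes, group as the only term, two-sided, 2 residual and 3.84 prior degrees of freedom), with Benjamini-Hochberg adjustment over 18132 genes or 44988 probe sets and a threshold of 0.05. A 95% interval is that of the fitted difference. The fit was tested on simulated data: in 2 against 2 arrays, 89.9% of genes shifted by 1 log2 unit were recovered, and 8.90% of those shifted by 0.5. Of the calls, 5.8% were false. Each draw shifted 100 genes by each size, while 864 genes passed in the data. The adjustment depends on how many genes change, so these shares need not hold for the data.

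The named genes are the 9 chosen symbols, up to 4 called genes of each list with the largest absolute difference (the 2 largest where none passed), and the 2 nearest profiles of each called member. CDKN1B, SESN2, SESN3, RRM1, DDB2, TNFRSF10B and the marker genes are named outside this rule, after values were seen. The members and lists were chosen with earlier results of these data known. Alternatives were median centring of arrays, quantile normalization, a robust prior, an intensity trend, removal of dim features, averaged probe sets per gene, the replicate number as a block, and each array left out.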

Additional observations from a re-analysis of the deposited data

How the results depend on the processing

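The 3 calls among the 8 measured genes (TP53I3, SESN1 and ZMAT3) held under median centring of arrays, quantile normalization, a robust prior, an intensity trend, removal of dim features, the mean of probe sets and the replicate block. With 1 array left out, 0 of the 8 genes and 0 of the 38 probe sets passed by limma (4 to 5 and 7 to 13 at an unadjusted p below 0.05), against 3 and 5 with all arrays. The count of genes then ran from 0 to 66 (2140 to 4428 unadjusted) and that of probe sets from 0 to 46 (4861 to 9822 unadjusted), and the other p53 targets, DREAM-repressed genes and ATF4 targets each gave 0 (10 to 26 unadjusted). Some differences that did not pass changed sign: MDM2 (0.094 with the mean of probe sets), CDKN1A (from -0.081 to 0.051 with 1 array left out) and GDF15 (from -0.041 to 0.188 with 1 array left out). With an intensity trend, calls rose to 2056 genes and 3797 probe sets, with 14 other p53 targets, 5 p53 regulators, 2 family relatives, 23 DREAM-repressed genes and 11 ATF4 targets. With dim features removed, where fewer features are tested, they were 2081 and 3853, with 15, 6, 2, 23 and 11 in the same lists. With the mean of probe sets, 2 p53 regulators, 13 DREAM-repressed genes and 10 ATF4 targets passed. Quantile normalization and centring each gave 1 p53 regulator. The cause of these shifts was otherwise not tested.

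With the replicate number as a block, 335 genes and 139 probe sets passed, with 0 DREAM-repressed genes (24 unadjusted), 1 ATF4 target and 0 of the 38 member probe sets (9 unadjusted). The same 3 members passed over genes (adjusted p from 0.0333 to 0.0415 by limma). Samples sharing a number had deviations correlated at r = 0.08 over 18132 genes, and nothing in the labels says that a number marks a shared culture or day, so the numbers were not taken as pairs.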
